A study of Mus musculus with 6 samples.

Results

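The gene Trp53, which encodes the tumour suppressor p53, and 9 of its direct targets (Cdkn1a, Mdm2, Zmat3, Trp53inp1, Eda2r, Ccng1, Phlda3, Bax and Plk2) were taken by symbol from an RNA sequencing table of 20596 named mouse genes. All 10 had a row, and all 10 were among the 16169 genes that passed the filter on low values. The CAF_CM group holds 3 libraries of 266.6 cells, a mouse pancreatic acinar tumour line, exposed for up to 40 days to medium conditioned by cancer-associated fibroblasts. The control group holds 3 libraries of the same line, labelled as control. The protocol text that gives the exposure to conditioned medium stands on all 6 labels, those of the controls included, so the groups rest on the titles and the treatment label. No genotype is labelled, and all cells shared a serum-containing medium with antibiotics. The labels do not say whether replicates were separate cultures, so p-values here describe variation among the sequenced libraries and possibly nothing more than technical variation. No culture time is given for the controls on their own, so exposure and length of culture cannot be told apart. As background, the line came from a tumour of a mouse carrying the T antigen of SV40, a viral protein that binds p53 and RB; its transcript was not analysed here.

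The p53 protein is a transcription factor that the ubiquitin ligase Mdm2 keeps scarce and that accumulates when DNA is damaged or cells are stressed. It switches on genes that stop the cell cycle, repair DNA, return p53 to its resting level or start apoptosis. Its activity is set largely at the level of the protein, which was not measured here. The product of Cdkn1a, p21, inhibits cyclin-dependent kinases, and through pocket proteins of the RB family this lowers the transcription of many genes of replication and mitosis.

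The CAF_CM libraries held 19517839 to 21002226 reads and the control libraries 18622370 to 19953198. Values are normalized counts, which are reads divided by 1 factor per library. The biological coefficient of variation over all genes was 8.23% among CAF_CM and 2.20% among control libraries. Acinar markers summed to 39079 to 45761 normalized counts in CAF_CM and 69709 to 72203 in control libraries. Most of this was Ctrb1, with a mean of 23668 in CAF_CM and 45083 in control libraries. Of 11 tested 1 rose (Nr5a2, 9.09%, against 18.3% of all genes tested). Another 4 fell (36.4%, against 16.1%), among them Rbpjl, Ctrb1 and Cela1. Whether called or not, 5 of the 11 had a positive fold change. Ductal markers summed to 759 to 903 in CAF_CM and 612 to 636 in control libraries, and of 6 tested 2 rose (Sox9 and Spp1, 33.3%) and 0 fell. Fibroblast markers summed to 3165 to 3649 in CAF_CM and 3515 to 3710.4 in control libraries, most of it Pdgfrb. Of 7 tested 1 rose (Col1a2) and 1 fell (Dcn), 14.3% each, near the shares of all genes. Col3a1, Lum and Fap were not analysed here. Among 17 alternative settings, the call of Col1a2 was lost with DESeq2, without CAF_CM replicate 1 or 2 and without any 1 control library. That of Nr5a2 was lost after correction for the length and GC of transcripts and without control replicate 1 or 2. Dcn lost its call without control replicate 3. Neither of the 2 immune and endothelial markers tested, Tek and Pecam1, passed the threshold, though Tek was lower in 4 alternatives, and the list summed to 159 to 197 in CAF_CM and 207 to 231 in control libraries. The part of these markers in the results below was not tested, and in bulk RNA fewer cells of a type and less RNA per cell cannot be told apart.

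Cdkn1a, Zmat3, Trp53inp1, Eda2r and Ccng1 rose in CAF_CM cells, Plk2 fell, and Trp53, Mdm2, Phlda3 and Bax did not pass the threshold. Fold changes are CAF_CM over control on the log2(value + 1) scale, on which low genes appear less changed than they are, and a call is an adjusted p under 0.05 in limma (Benjamini-Hochberg over all genes tested). Thus 5 of 10 members were higher, against 18.3% of all genes tested, and 1 of 10 was lower, against 16.1%, or 34.4% in either direction. Their median log2 fold change was 0.30, against 0.00459 for all genes. With libraries scaled by their totals instead, 4 members were higher and 1 lower, against 13.8% of all genes higher and 19.7% lower; the higher genes then made up 41.2% of all calls instead of 53.2%. The groups did not overlap for 4 members upward, against 24.8% of all genes, and for 1 downward, against 22.9%, or 47.7% in either direction. These counts describe a list chosen with results of these data known.

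**Figure D1:**
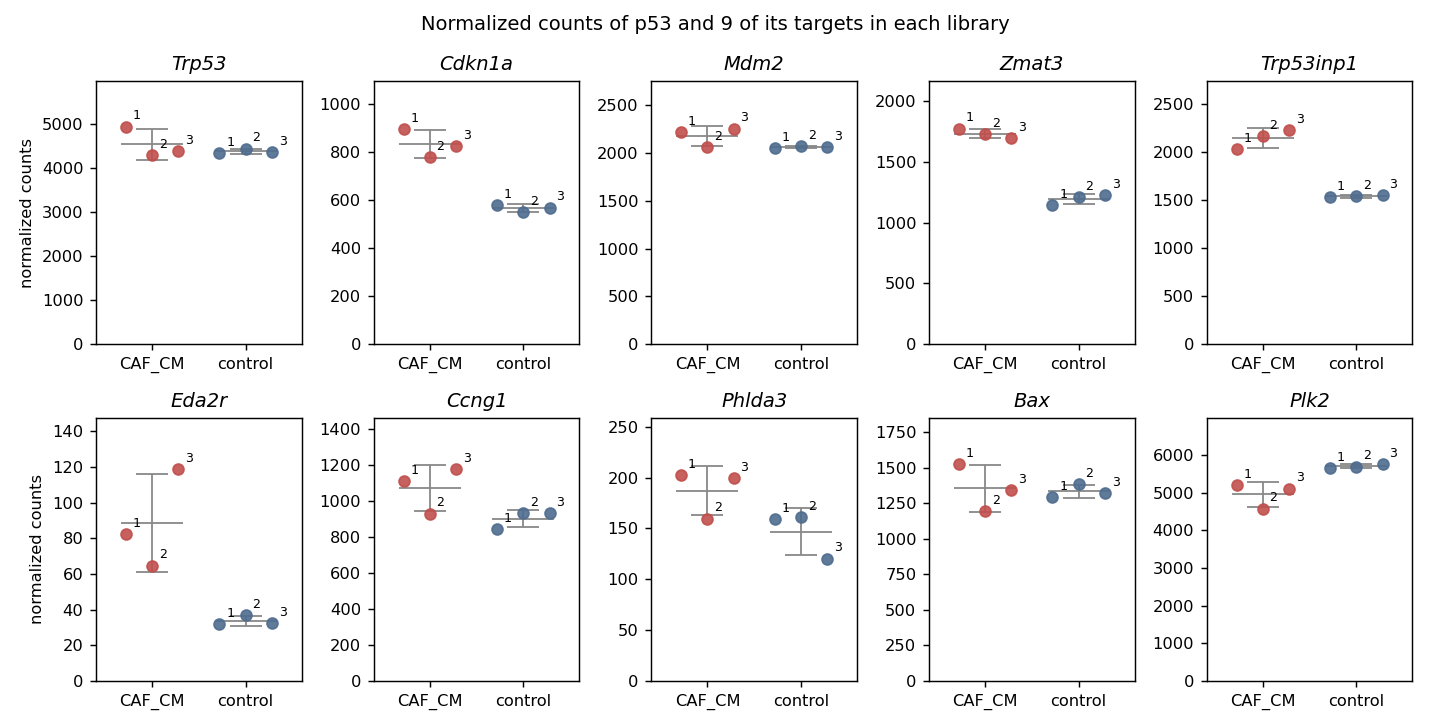
Normalized counts of the 10 genes in each library (vertical axes), CAF_CM left of control; points are libraries with their replicate numbers, lines are means and bars 1 SD (n = 3 per group). Every CAF_CM library lies above every control library for Cdkn1a, Zmat3, Trp53inp1 and Eda2r and below for Plk2, and the groups overlap for the other 5 genes.

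Because Cdkn1a has the only complete match to the p53 consensus among the 9 windows of the members, the window around its first start is shown here. The windows come from RefSeq (GRCm38.p6) and run from 250 bases before a gene's start over its first 50 bases. The consensus is a pair of 10-base motifs (the p53 half-site consensus) with a spacer of at most 13 bases, and the motif is its own reverse complement, so a match stands on both strands. The window is chr17:29090729-29091028 on the plus strand, and capitals mark 2 motifs, 12 bases apart, which begin 73 and 51 bases before this first start. Only exact matches to the consensus were sought, and near matches stay in lower case.
Cdkn1a: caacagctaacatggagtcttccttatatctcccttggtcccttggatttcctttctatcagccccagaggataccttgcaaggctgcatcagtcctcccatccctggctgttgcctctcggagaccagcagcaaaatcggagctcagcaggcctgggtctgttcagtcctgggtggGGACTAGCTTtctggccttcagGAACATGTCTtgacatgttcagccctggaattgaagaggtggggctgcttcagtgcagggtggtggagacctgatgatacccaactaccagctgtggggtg

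Of 32851 windows in the RefSeq table, 8.36% hold the motif and 0.0731% a pair. Of the 10 members 8 were matched, with 9 windows, and 5 members hold the motif. The other 4 are Trp53, Mdm2, Ccng1 and Bax, shown to set a lone motif beside the pair in Cdkn1a, each with 20 bases on either side of the motif in capitals. They are chr11:69580264-69580313 on the plus strand for Trp53 and, on the minus strand, chr10:117710915-117710964 for Mdm2, chr11:40755442-40755491 for Ccng1 and chr7:45467070-45467119 for Bax.
Trp53: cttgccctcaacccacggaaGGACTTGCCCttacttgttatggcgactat
Mdm2: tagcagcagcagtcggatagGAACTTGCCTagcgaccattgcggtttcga
Ccng1: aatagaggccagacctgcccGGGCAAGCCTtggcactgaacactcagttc
Bax: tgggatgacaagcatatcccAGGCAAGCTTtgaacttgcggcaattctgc

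The motif begins 75 bases before the start in Trp53, 186 in Mdm2, 185 in Ccng1 and 201 in Bax. The windows of Phlda3, Plk2, Eda2r and the other start of Cdkn1a hold none, and Zmat3 and Trp53inp1 were not matched. That other start of Cdkn1a lies downstream, with its window at chr17:29093519-29093818 on the plus strand. A match describes letters of the reference, and binding of p53 was not measured.

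The transcript of p53 itself did not pass the test. Trp53 had 4944, 4289 and 4384 normalized counts in CAF_CM replicates 1, 2 and 3, against 4333, 4443 and 4372 in control replicates 1, 2 and 3. The highest and the lowest of the 6 libraries were both CAF_CM libraries, so the groups overlapped. The log2 fold change was 0.0477 with a 95% interval of -0.0772 to 0.17 (limma, adjusted p = 0.557), and it was -0.0154 without CAF_CM replicate 1. The pseudogene Trp53.ps, whose reads the counting may have split from those of Trp53, had 97.8, 97.9 and 107 normalized counts in CAF_CM and 79.9, 82.6 and 83.7 in control libraries, which is 2.23% of Trp53 in CAF_CM and 1.87% in control libraries.

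Mdm2, which marks p53 for destruction and is itself induced by p53, had 2221, 2061 and 2253 normalized counts in CAF_CM replicates 1, 2 and 3, against 2054, 2069 and 2063 in control replicates 1, 2 and 3. CAF_CM replicates 1 and 3 were above all controls and replicate 2 lay among them. The log2 fold change was 0.0781 with a 95% interval of -0.0325 to 0.19 (limma, adjusted p = 0.258), and no alternative setting brought it past the threshold.

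Ccng1 encodes cyclin G1, which brings the phosphatase PP2A to Mdm2. It had 1113, 931 and 1179.8 normalized counts in CAF_CM replicates 1, 2 and 3, against 847, 932 and 933 in control replicates 1, 2 and 3. CAF_CM replicates 1 and 3 were the highest libraries, but replicate 2 lay among the controls. Ccng1 averaged 1075 ± 129 in CAF_CM and 904 ± 49.6 in control libraries (SD, n = 3 each), a log2 fold change of 0.24, SE 0.0837 (limma, adjusted p = 0.0421). The call was lost in 6 of 17 alternatives. The adjusted p was 0.0866 with library totals, 0.0534 and 0.166 without CAF_CM replicate 1 or 3, and 0.172, 0.0820 and 0.0801 without control replicate 1, 2 or 3.

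Among the genes of growth arrest, the kinase inhibitor gene Cdkn1a rose. It had 895, 779 and 823 normalized counts in CAF_CM replicates 1, 2 and 3, against 579.8, 549 and 568 in control replicates 1, 2 and 3. The lowest CAF_CM library was well above the highest control. Cdkn1a averaged 832 ± 58.6 in CAF_CM and 566 ± 15.7 in control libraries (SD, n = 3 each), a 1.47-fold rise with a 95% interval of 1.33 to 1.62 (limma, adjusted p = 1.63e-04). It was called in all 17 alternatives, at log2 fold changes of 0.50 to 0.65. An annotated transcript on the opposite strand, AC167363.2, covers 7.68% of its exon bases, and the strand setting of the counting is not given in the sources used here.

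Plk2 encodes a polo-like kinase of centriole duplication and was the only member that fell. It had 5187, 4575 and 5105 normalized counts in CAF_CM replicates 1, 2 and 3, against 5643, 5689.6 and 5762 in control replicates 1, 2 and 3. All CAF_CM libraries were below all controls, with replicate 2 lowest. The log2 fold change was -0.20, SE 0.0542 (limma, adjusted p = 0.0136), and the call was lost without control replicate 2 (0.0588) or 3 (0.0628). The related target Plk3 went the other way, with 457 ± 40.9 normalized counts in CAF_CM and 343 ± 19.0 in control libraries (SD, n = 3 each; log2 fold change 0.41, limma adjusted p = 0.00310). Plk4, the kinase gene that starts centriole duplication, rose by 0.40 (limma, adjusted p = 2.43e-04).

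Zmat3 encodes a zinc finger protein that binds RNA. It had 1773, 1730.5 and 1695 normalized counts in CAF_CM replicates 1, 2 and 3, against 1146, 1208 and 1226 in control replicates 1, 2 and 3. The groups lay far apart, and the CAF_CM libraries varied by 2.25% (coefficient of variation), near the 2.38% of counting error alone. The rise was 1.45-fold with a 95% interval of 1.34 to 1.57 (limma, adjusted p = 4.93e-05). It was called in all 17 alternatives, lowest at a log2 fold change of 0.37 after correction for the length and GC of transcripts.

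Trp53inp1 encodes a stress-induced cofactor of p53 that also acts in autophagy. It had 2027, 2167 and 2232 normalized counts in CAF_CM replicates 1, 2 and 3, against 1528, 1539 and 1553 in control replicates 1, 2 and 3. The groups did not overlap, and the controls were close together. The rise was 1.39-fold with a 95% interval of 1.28 to 1.50 (limma, adjusted p = 9.49e-05), called in all 17 alternatives. Its paralogue Trp53inp2 rose by a log2 fold change of 0.17 (limma, adjusted p = 0.0267), a call lost with library totals and without CAF_CM replicate 2 or any 1 control library, at adjusted p up to 0.125. In the list of paralogues and ligands of members, 2 of 8 tested genes rose, Plk4 and Trp53inp2 (25%, against 18.3% of all genes). None fell, against 16.1% of all genes. Only 3 of the 8 had a positive fold change, and the list median was -0.113.

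**Figure D2:**
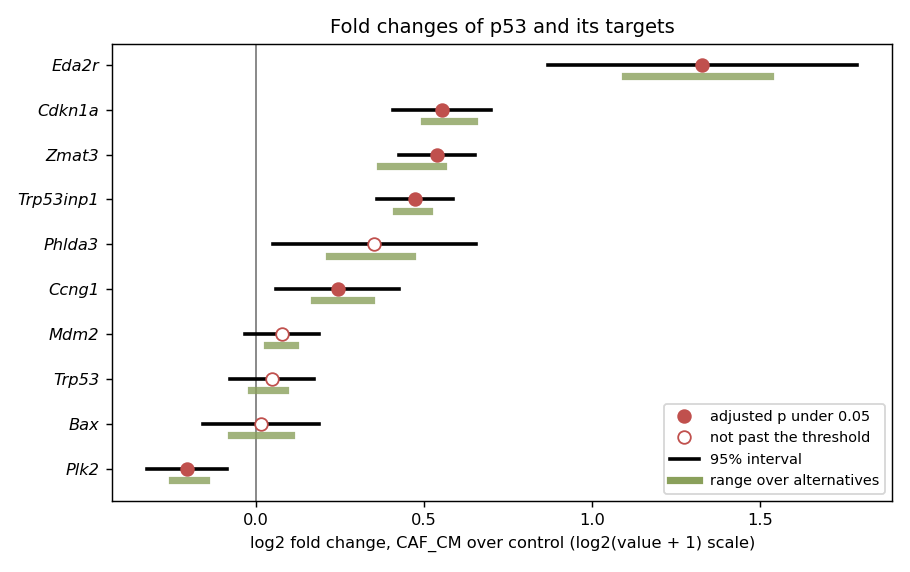
Log2 fold change of each member, CAF_CM over control (horizontal axis), from limma over 16169 genes; circles are estimates, black lines 95% intervals and green bars the range over 17 alternative settings. Eda2r lies farthest right at 1.33, Plk2 lies left of 0 at -0.20, and the green bars of Trp53 and Bax cross 0.

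Eda2r, the gene of a receptor in the tumour necrosis factor receptor family that binds ectodysplasin A2, had the largest fold change of the members at the lowest level. It had 82.4, 64.6 and 119 normalized counts in CAF_CM replicates 1, 2 and 3, against 31.8, 36.7 and 32.4 in control replicates 1, 2 and 3. These came from 66 to 125 reads in CAF_CM and 31 to 36 reads in control libraries. All CAF_CM libraries were above all controls, but they spread widely, by 31.1% against 10.5% from counting alone. The rise was 2.51-fold with a 95% interval of 1.83 to 3.45 (limma, adjusted p = 7.43e-04), called in all 17 alternatives at log2 fold changes of 1.10 to 1.53. By fold change Eda2r stood at place 27 of the 2953 genes called higher, Cdkn1a at place 433, Zmat3 at 468, Trp53inp1 at 617 and Ccng1 at 2095. The ligand gene Eda was not analysed here.

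The window of Eda2r, chrX:97377160-97377459 on the minus strand (RefSeq, GRCm38.p6), is shown because its fold change was the largest of the members. Capitals mark a GC box, a TATA box and a CCAAT box on the strand shown.
Eda2r: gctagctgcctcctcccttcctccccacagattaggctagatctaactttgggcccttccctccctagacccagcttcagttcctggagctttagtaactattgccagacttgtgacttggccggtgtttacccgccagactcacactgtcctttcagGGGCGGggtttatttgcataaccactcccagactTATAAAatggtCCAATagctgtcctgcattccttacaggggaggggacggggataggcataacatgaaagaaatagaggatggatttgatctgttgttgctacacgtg

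On either strand, the letters TATAAA are in 13.6% of all 32851 windows and, among members, in those of Eda2r and Trp53. The letters GGGCGG are in 35.7% of all windows. The letters CCAAT are in 37.4%.

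Phlda3 encodes a protein that competes with the survival kinase Akt for membrane lipids. It had 203, 159.6 and 199 normalized counts in CAF_CM replicates 1, 2 and 3, against 159, 161 and 120.4 in control replicates 1, 2 and 3. CAF_CM replicates 1 and 3 were highest, and replicate 2 lay among the controls. The log2 fold change of 0.35, with a 95% interval of 0.0499 to 0.66, did not pass the threshold (limma, adjusted p = 0.0689). It passed without CAF_CM replicate 2 (0.46, adjusted p = 0.0173) and after correction for the length and GC of transcripts (0.39, adjusted p = 0.0289).

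Bax, whose product opens pores in the outer mitochondrial membrane, had 1525, 1192 and 1342 normalized counts in CAF_CM replicates 1, 2 and 3, against 1292, 1383 and 1319.9 in control replicates 1, 2 and 3. CAF_CM libraries were both the highest and the lowest, so the groups overlapped. The log2 fold change was 0.0162 with a 95% interval of -0.16 to 0.19 (limma, adjusted p = 0.897). Its sign turned with library totals (-0.0293), without CAF_CM replicate 1 (-0.0737) and without control replicate 1 (-0.00549). An annotated gene on the same strand, Gm45808, shares 12.2% of its exon bases.

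CAF_CM replicate 2 stood apart among the members. It was the lowest CAF_CM library for 8 of 10 members, against 35.9% of all genes. It was above the control range for 4 members, replicate 1 for 9 and replicate 3 for 7. The median difference of the members from the control mean was 0.35 in CAF_CM replicate 1, 0.0884 in replicate 2 and 0.42 in replicate 3 (log2 units). The coefficient of variation was larger in CAF_CM than in control libraries for 8 of 10 members and for 72.5% of all genes. Cdkn1a, Zmat3, Trp53inp1 and Eda2r were called with and without CAF_CM replicate 2. Over all genes a different CAF_CM library, replicate 1, was the farthest from the rest of its group. Its biological coefficient of variation was 10.2% when paired with replicate 2 and 7.53% when paired with replicate 3. The pair without replicate 1 was closer, at 6.68%.

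Levels between genes were compared per kilobase of the longest annotated transcript. Plk2 was highest, with a mean of 1770.0 normalized counts per kilobase in CAF_CM and 2035 in control libraries. Trp53 followed with 1386 in CAF_CM and 1338 in control libraries, and Bax with 1230.0 in CAF_CM and 1211 in control libraries. The ranges of Trp53 and Bax overlapped among CAF_CM but not among control libraries. Mdm2 had 693 in CAF_CM and 656 in control libraries. Cdkn1a, with 400.0 in CAF_CM and 272 in control libraries, overlapped Trp53inp1 in CAF_CM libraries (394) and Ccng1 in control libraries (257). At the low end, Zmat3 had 222 in CAF_CM and 153 in control libraries, Phlda3 had 130.5 in CAF_CM and 102 in control libraries, and Eda2r had 18.6 in CAF_CM and 7.08 in control libraries.

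Ratios of reads of 2 genes within a library do not depend on how libraries were scaled. The 8 ratios computed were chosen after values had been seen. Reads of Cdkn1a per read of Mdm2 were 0.403, 0.378 and 0.365 in CAF_CM replicates 1, 2 and 3, against 0.282, 0.265 and 0.275 in control replicates 1, 2 and 3. Per read of Trp53 they were 0.181, 0.182 and 0.188 in CAF_CM and 0.134, 0.124 and 0.130 in control libraries. In both ratios the groups did not overlap, and CAF_CM replicate 2 lay between the other CAF_CM libraries. The ratio of Trp53 to Mdm2 overlapped, at 2.08 ± 0.140 in CAF_CM and 2.13 ± 0.0194 in control libraries (SD, n = 3 each; exact permutation test, two-sided, p = 0.7). The other 7 ratios gave p = 0.1, the smallest that this exact permutation test of 3 against 3 libraries allows, so none can pass 0.05.

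**Figure D3:**
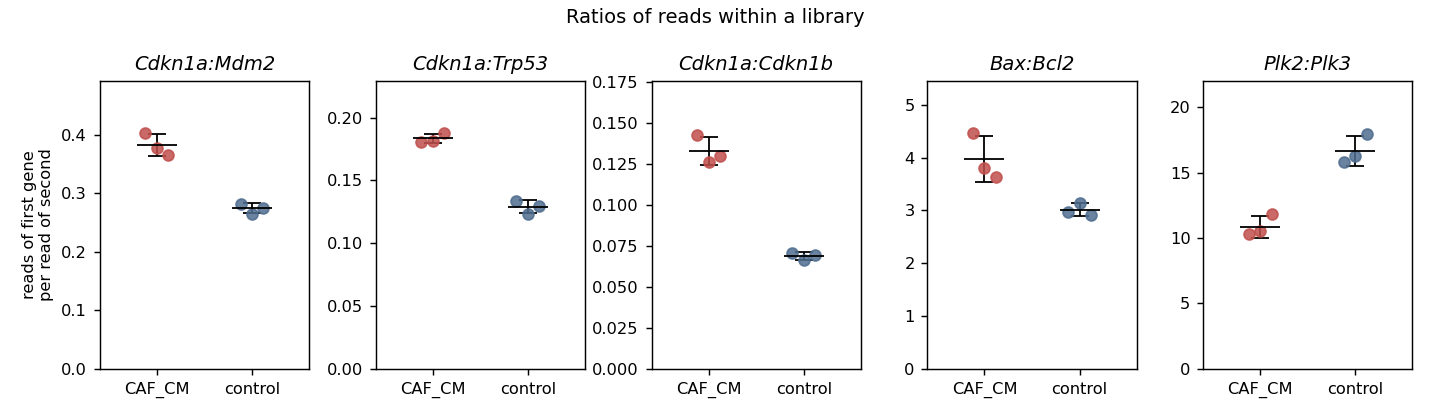
Reads of the first gene per read of the second in each library (vertical axes), CAF_CM left of control; points are libraries, lines means and bars 1 SD (n = 3 per group). The groups separate in each of the 5 ratios drawn, upward for Cdkn1a to Cdkn1b (0.133 ± 0.00851 in CAF_CM, 0.0687 ± 0.00232 in control libraries) and downward for Plk2 to Plk3 (10.9 ± 0.834 in CAF_CM, 16.7 ± 1.12 in control libraries).

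The genes most like Cdkn1a over the 6 libraries, by Pearson correlation of log2(value + 1) among 10342 genes with a mean of at least 100, were Zfp599, Twf1, Srp68, Neurod1 and Rnf41, each at r = 0.998. Neurod1, a transcription factor gene of endocrine and neural cells, had 292, 177 and 229 normalized counts in CAF_CM replicates 1, 2 and 3, against 54.9, 51.0 and 57.6 in control replicates 1, 2 and 3. Its CAF_CM libraries stood in the same order as those of Cdkn1a, with replicate 1 highest and replicate 2 lowest. So did those of Zfp599, Twf1, Srp68 and Rnf41. The choice by correlation over these same libraries largely builds in such a match. With 2 separate groups of libraries high values of r are common, and 72 genes reached 0.99. Among the members r with Cdkn1a was 0.971 for Zmat3, 0.933 for Trp53inp1, 0.509 for Trp53 and -0.764 for Plk2.

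Beyond the members, 34 further p53 targets were tested. There 12 were higher (35.3%) and 4 lower (11.8%), against 18.3% of all genes higher and 16.1% lower, and their median log2 fold change was 0.0923. The count of higher targets was 7 with library totals, 7 with DESeq2, and 6, 7 and 7 without control replicate 1, 2 or 3. The count over all genes also fell in these settings. From 2953 in the main test it went to 2231 with library totals (13.8%) and 2452 with DESeq2. Without control replicate 1, 2 or 3 it was 1868, 1967 and 2087. Among 17 targets of arrest and repair 7 rose (41.2%, against 18.3% of all genes) and 2 fell (11.8%, against 16.1%). Without control replicate 1 or 3 the number higher was 4 each, and the number lower was 1 with DESeq2, with group weights and without CAF_CM replicate 3 or control replicate 2 or 3. Over all genes the number lower was 2602 in the main test. In the settings just named it was 2099, 2627, 2090, 1715 and 1723, in that order. Zfp365, a gene of genome stability, had 153 ± 13.1 normalized counts in CAF_CM and 87.7 ± 2.50 in control libraries (log2 fold change 0.79, limma adjusted p = 4.35e-04). Ptprv, a phosphatase gene, had 47.3 ± 4.68 in CAF_CM and 21.7 ± 6.67 in control libraries (1.13, limma adjusted p = 0.00415). Ddb2, whose product recognises ultraviolet damage, fell to 64.4 ± 1.64 in CAF_CM, against 102 ± 6.98 in control libraries (-0.65, limma adjusted p = 0.00249; SD, n = 3 each). Btg2, an antiproliferative target named after its values were seen, had 732 ± 99.0 in CAF_CM and 726 ± 45.8 in control libraries (limma, adjusted p = 0.984).

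Among 17 targets of apoptosis 5 rose (29.4%, against 18.3% of all genes) and 2 fell (11.8%, against 16.1%). The number higher was 2 with library totals, with DESeq2 and without control replicate 1 or 2, and 3 without CAF_CM replicate 2 or control replicate 3. Over all genes it was 2953 in the main test. In these settings it was 2231, 2452, 1868, 1967, 3100 and 2087, in that order. Aen, a nuclease gene, had 1110.5 ± 135 normalized counts in CAF_CM and 818 ± 17.0 in control libraries (log2 fold change 0.43, limma adjusted p = 0.00196), and Trp53i11 rose by 0.40. Pidd1, which encodes a scaffold that activates caspase-2, fell to 628 ± 19.6 in CAF_CM, against 816 ± 4.56 in control libraries (-0.38, limma adjusted p = 5.62e-04), and Rps27l, a paralogue of a ribosomal protein gene, changed by -0.35 (adjusted p = 5.13e-04). The death genes Bbc3 (Puma) and Pmaip1 (Noxa), named after their values were seen, did not pass the threshold, at 0.0705 (adjusted p = 0.759) and 0.13 (adjusted p = 0.430).

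**Figure D4:**
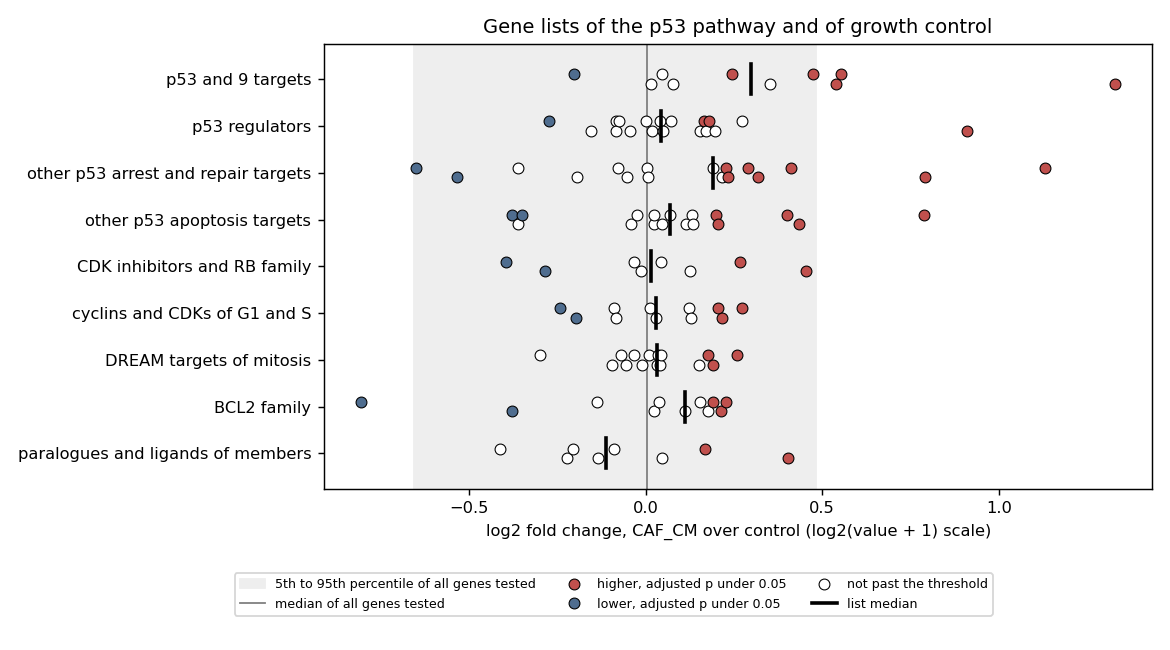
Log2 fold change of each tested gene in 9 lists (horizontal axis); circles are genes, coloured where called higher or lower, bars are list medians, and the grey band spans the 5th to 95th percentile of all 16169 genes, -0.65 to 0.48. The members have the highest list median, 0.30, and called genes lie on both sides of 0 in 7 of the 9 lists.

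Of 18 regulators of p53 tested, 3 rose (16.7%, against 18.3% of all genes) and 1 fell (5.56%, against 16.1%). The median log2 fold change of the 18 was 0.0447. The number higher was 7 without CAF_CM replicate 1, 5 with the replicate block, and 1 with library totals, with the length and GC correction and without control replicate 2. Over all genes it was 2953 in the main test and 3509, 3166, 2231, 3153 and 1967 in these settings, in that order. The number lower was 2 with that correction and without CAF_CM replicate 2. Over all genes it was 2602 in the main test and 2806 and 2786 in these 2 settings. Hipk2, a kinase that phosphorylates p53, had 821, 1709 and 1669 normalized counts in CAF_CM replicates 1, 2 and 3, against 625, 728 and 774 in control replicates 1, 2 and 3 (0.91, limma adjusted p = 0.00803). Here CAF_CM replicate 1 was the lowest of its group. Pml, the scaffold gene of nuclear bodies, fell (-0.27, adjusted p = 0.00597). The deubiquitinase gene Usp7 (0.16, adjusted p = 0.0179) and the ubiquitin ligase gene Cop1 (0.18, adjusted p = 0.0176) passed the threshold, but neither call was stable. Correcting for transcript length and GC left Usp7 at 0.0650 (adjusted p = 0.226), and its call was also lost with library totals (0.0572) and without control replicate 1 (0.103) or 2 (0.0719). Cop1 lost its call after that correction (0.107), with library totals (0.0619), with DESeq2 (0.0504) and without control replicate 2 (0.0951) or 3 (0.0725).

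Of 8 kinase inhibitors and RB family genes 2 rose and 2 fell, against 18.3% of all genes higher and 16.1% lower. Cdkn1b, which encodes the p21 relative p27, had 6285, 6175 and 6335 normalized counts in CAF_CM replicates 1, 2 and 3, against 8210.2, 8302 and 8204 in control replicates 1, 2 and 3. All CAF_CM libraries were far below all controls (-0.40, limma adjusted p = 9.13e-05). Reads of Cdkn1a per read of Cdkn1b were thus 1.93-fold higher in CAF_CM libraries. The pocket protein gene Rbl1 fell (-0.29, adjusted p = 0.0120), and its call was lost without CAF_CM replicate 3 (0.0506) or control replicate 3 (0.0542). Cdkn1c (0.27, adjusted p = 0.0248) and Cdkn2b (0.45, adjusted p = 0.0442) rose, and both calls were lost with library totals (0.0555 and 0.0671) and without any 1 of the control libraries, and that of Cdkn2b also without CAF_CM replicate 1 (0.105) or 3 (0.135).

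Among 15 mitotic genes of the kind that p21 lowers through pocket proteins, 3 rose (20%, against 18.3% of all genes) and none passed the threshold downward in limma (against 16.1%), with a median log2 fold change of 0.0311. At an unadjusted p under 0.05, 4 were higher and 1 lower. The number higher was 1 without control replicate 1 or 3. Over all genes it was then 1868 and 2087, against 2953 in the main test. Of all 15 genes edgeR called 0 lower and DESeq2 0, and the correction for length and GC gave 2, the most of any alternative. Over all genes these called 2682, 2099 and 2806 lower, in that order, against 2602 in the main test. Ccnb1, the cyclin of mitotic entry, had 4055, 3794 and 3785 normalized counts in CAF_CM replicates 1, 2 and 3, against 3238, 3257 and 3224 in control replicates 1, 2 and 3 (0.26, limma adjusted p = 0.00166). Its CAF_CM libraries were all above its controls. The mitotic kinase gene Plk1 rose (0.19), a call lost without control replicate 1 (0.0598) or 3 (0.0638). Top2a, the topoisomerase gene of dividing cells, rose (0.18), a call lost with library totals, with the length and GC correction and without any 1 library other than CAF_CM replicate 1, at adjusted p up to 0.349. Mki67, the gene of the Ki-67 antigen, named after its values were seen, had 9108, 13392 and 12499 in CAF_CM and 13670.5, 14234 and 14565 in control libraries; it did not pass the threshold (-0.30, adjusted p = 0.0578) although the groups did not overlap.

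Of 11 cyclin, kinase and E2F genes of G1 and S phase 3 rose (27.3%, against 18.3% of all genes) and 2 fell (18.2%, against 16.1%). The number lower was 0 without control replicate 1 and 1 without CAF_CM replicate 2 or 3, without control replicate 2 or 3, with DESeq2 and with the length and GC correction. Over all genes it was 2602 in the main test. In these settings it was 1659, 2786, 2090, 1715, 1723, 2099 and 2806, in that order. E2f3 (0.27, adjusted p = 0.00175), Ccna2 (0.21, adjusted p = 0.00435) and Ccnd3 (0.22, adjusted p = 0.0104) rose, and E2f1 (-0.24, adjusted p = 0.00850) was among those that fell. The call of Ccnd3 was lost without control replicate 3 (0.0575) and that of E2f1 without control replicate 1 (0.0515).

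In the BCL2 family, whose members restrain or release Bax, 3 of 11 tested genes rose (27.3%, against 18.3% of all genes) and 2 fell (18.2%, against 16.1%). The number higher was 0 with library totals and without control replicate 1 or 2, and 1 without CAF_CM replicate 3 or control replicate 3. Over all genes it was 2953 in the main test and 2231, 1868, 1967, 2309 and 2087 in these settings, in that order. The number lower was 1 with DESeq2 and without any 1 library other than CAF_CM replicate 1. Over all genes it was 2602 in the main test, 2099 with DESeq2, and 1659 to 2786 without 1 of those libraries. The survival gene Bcl2 had 342, 313 and 369 normalized counts in CAF_CM replicates 1, 2 and 3, against 435, 439.7 and 453 in control replicates 1, 2 and 3 (-0.38, limma adjusted p = 0.00366). All its CAF_CM libraries were below its controls. The survival gene Mcl1 rose, with 2559 ± 212 in CAF_CM and 2205 ± 74.3 in control libraries (0.21, limma adjusted p = 0.0220), a call lost with library totals and without CAF_CM replicate 3 or control replicate 1 or 2, at adjusted p up to 0.103. Reads of Bax per read of Bcl2 were 4.46, 3.80 and 3.63 in CAF_CM and 2.97, 3.15 and 2.91 in control libraries. Reads of Bax per read of Mcl1 were 0.552, 0.510 and 0.520 in CAF_CM and 0.585, 0.650 and 0.580 in control libraries. Relative to Bax, then, Bcl2 and Mcl1 stood on opposite sides of their control values. Bcl2l1 and Bcl2l2, named after their values were seen, had positive fold changes like Mcl1. Neither passed the threshold, at 0.18 (limma, adjusted p = 0.0731) and 0.11 (limma, adjusted p = 0.197). Bak1, also named after its values were seen, was called higher close to the threshold (0.19, limma adjusted p = 0.0487). The death genes Bcl2l11 (0.23, adjusted p = 0.0308) and Bik (-0.80, adjusted p = 0.0311) also passed the threshold, Bik at only 10.4 to 16.5 normalized counts in CAF_CM and 21.4 to 25.1 in control libraries, and each lost its call in 6 alternatives, among them without CAF_CM replicate 2 and without any 1 of the control libraries.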

How the data were processed

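RNA of 6 libraries (CAF_CM and control, 3 each) was sequenced after TruSeq preparation, per the labels' protocols. The deposited signal values are gene counts that the authors divided by 1 factor per library; per the submitters' processing notes, DESeq2 and FastQC were used and the build is hg19, although the table holds mouse symbols; a mouse build, an aligner and a counter are not given in the sources used here. All values came out as whole reads (100.0% within 0.001) when divided by the value of 1 read. Rows without a symbol, 168 with at most 0.261% of reads, were left out. A gene was tested if 3 or more libraries reached a value of 10. The test was limma (version 3.58.1, in R 4.3.3) with its variance trend, applied to log2(value + 1), with p-values adjusted over all genes by Benjamini-Hochberg and a threshold of 0.05. The scripts were tested on simulated data. Alternatives were edgeR 4.0.16 and DESeq2 1.42.0 on the recovered reads, library totals, TMM, pseudocounts of 0.5 and 5, no filter, a 1 CPM filter, group weights, a replicate block, a correction for length and GC, and each library left out. Lengths came from GENCODE M21. Named list genes are up to 4 called genes of lowest adjusted p per list (or, with none called, the 2 of lowest p), and the 5 genes most like Cdkn1a; others are marked in the text. The members, lists and tests were chosen with earlier results of these data known.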

Additional observations from a re-analysis of the deposited data

How the results depend on the processing

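Over 17 alternatives, Cdkn1a, Zmat3, Trp53inp1 and Eda2r kept their direction and call in each. Leaving out 1 library gave 1868 to 3509 genes higher and 1659 to 2943 lower, against 2953 and 2602 with all libraries, with the fewest without control replicate 1 and the most without CAF_CM replicate 1. Members higher then numbered 4 to 6 and members lower 0 to 1, with 0 lower without control replicate 2 or 3. The estimate of Trp53 turned to -0.0154 without CAF_CM replicate 1 and ranged over -0.0154 to 0.0872 with 1 library left out. That of Bax turned to -0.0293 with library totals and ranged over -0.0737 to 0.10, negative also without control replicate 1 (-0.00549); the cause was not tested. On the recovered reads edgeR called 2888 genes higher and 2682 lower, and DESeq2 2452 higher and 2099 lower. Of 39 named list genes 22 kept call and sign in all 17 alternatives. Same-numbered libraries correlated by 0.0703, 0.0291 and 0.0305 in their deviations from group means. These values are low, though each library correlated best with its own number. With 3 libraries per group they cannot decide whether replicate numbers pair the samples. With the replicate as a block 3166 genes were higher and 2755 lower, with 5 members higher and 1 lower.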
